A study of Sus scrofa with 8 samples.

Results

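The genes described here encode the enzymes that build and degrade glycogen in skeletal muscle. They were measured in the longissimus dorsi, the long back muscle, of Korean native pigs (KNP) aged 7 months and Yorkshire pigs (YS) aged 6 months. Muscle was taken between the seventh and ninth ribs of animals raised under the same conditions, and total RNA of each replicate was hybridised to 1 Affymetrix porcine array, with 4 biological replicates per breed. The stated aim was a search for genes that differ between the breeds. Age differs with breed in every comparison, so their parts cannot be told apart, and neither sex nor feeding before sampling is stated in the labels.

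Genes were taken by name from a list of 9, each represented by the probe sets whose platform annotation gives exactly 1 gene symbol. Of the 9 genes, 6 had such a probe set, namely UGP2, GYS1, PGM1, PYGM, PHKB and PHKG1. Together they had 12 probe sets, of 24123 on the array, and a lookup of their gene numbers in the Sscrofa11.1 gene table gave the same symbol for all 12. The branching enzyme gene GBE1, the glycogen-targeting subunit gene PPP1R3C and the phosphorylase kinase gene PHKA1 were passed over, since they had no such probe set. The probe set of PHKG1 was among the dimmest 40% of the array and was not tested, which left 11 probe sets of 5 genes.

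Muscle stores glucose as glycogen and draws on it during contraction. For storage, phosphoglucomutase (PGM1) turns glucose 6-phosphate into glucose 1-phosphate, UGP2 activates this to UDP-glucose, and glycogen synthase (GYS1) adds the glucose to the growing chain. For breakdown, muscle glycogen phosphorylase (PYGM) releases glucose 1-phosphate, which PGM1 turns back into glucose 6-phosphate for glycolysis. Phosphorylase kinase switches phosphorylase on in response to calcium and cyclic AMP, with PHKB encoding its regulatory beta subunit and PHKG1 the catalytic subunit of muscle. Glycogen content matters in pig muscle because it sets how far the pH of meat falls after slaughter.

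Signals are linear values that had been scaled to a common level on each array, and a log2 change is the mean log2(signal + 32) of KNP animals minus that of YS animals. Levels of different probe sets are not comparable with each other, so each is followed across arrays only. The median signal per array was between 135.8 and 185.3. Of 5 defining muscle markers 3 had a probe set (CKM, DES and TTN), and each exceeded on every array a signal of 91.5, the 95th percentile of the 23 negative control probe sets. The signal at the 3' end of actin, EF1A and GAPDH transcripts exceeded that at the 5' end by 3.33 log2 units in KNP 1 and by 3.03 in YS 3, against 0.87 to 1.73 on the other 6 arrays. This measure was 1.70 ± 1.11 in KNP animals and 1.70 ± 0.95 in YS animals (SD, n = 4), with p = 1 in a two-sided exact permutation test. In whole muscle, fewer cells of a type and less RNA per cell cannot be told apart.

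None of the 5 tested glycogen genes was found to differ between the breeds beyond the spread between animals. With limma, 0 of the 11 tested probe sets had an adjusted p under 0.05, against 0% of the 14399 probe sets tested on the array, and the smallest adjusted p among the 11 was 0.999. At an unadjusted p under 0.05 there were again 0 of 11, against 3.96% of all probe sets. The signals of the breeds overlapped for all 11, and did not overlap for 2.56% of all probe sets. With 11 probe sets, counts of 0 are near these shares and do not set the genes apart from the rest of the array. Of the 5 tested genes, each taken by the probe set with the highest mean, UGP2 and PHKB lay above 0 and GYS1, PGM1 and PYGM below, with a median log2 change of -0.16. Over all 5331 genes tested the median was -0.00269. The median of the 5 genes was -0.01 without YS 4 and -0.32 without the 2 arrays of high 3' to 5' difference.

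**Figure D1:**
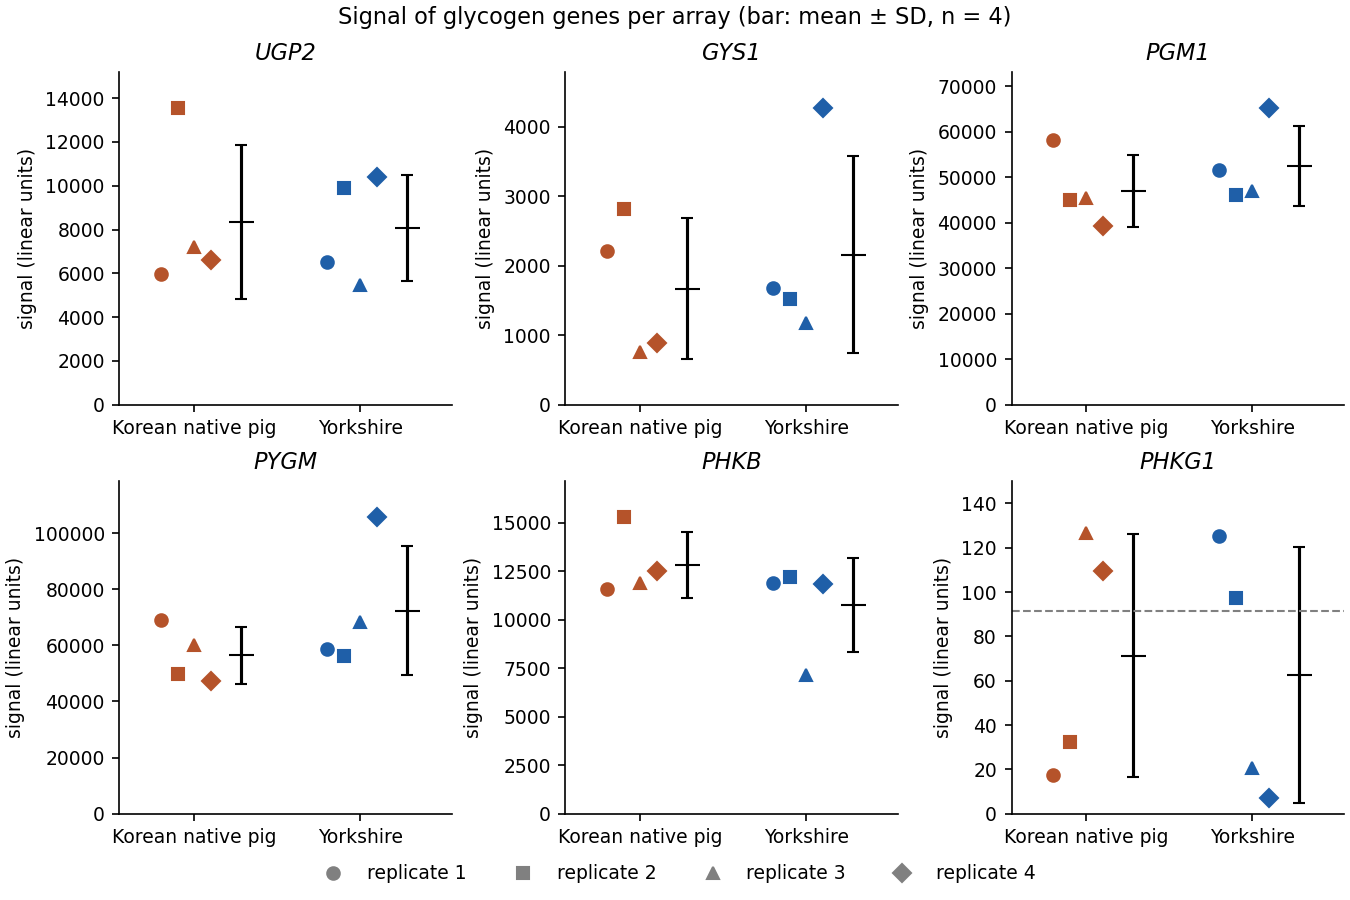
Linear signal (vertical axis, from 0) of the probe set of highest mean signal of each gene on the 4 KNP and the 4 YS arrays, with a marker shape per replicate and a bar for mean ± SD. The breeds overlap in all 6 genes, YS 4 is the highest array for GYS1, PGM1 and PYGM, and the dashed line in the PHKG1 plot marks the 91.5 of the negative controls.

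Among the synthesis genes, UGP2 had nearly equal means in the breeds and a wide spread between animals. Its probe set Ssc.5264.1.A1_at had signals of 5961, 13558, 7224 and 6616 in KNP 1 to 4, against 6523, 9878.5, 5482 and 10379 in YS 1 to 4. KNP 2 was the highest of the 8 arrays, and KNP 1 and YS 3, the arrays of high 3' to 5' difference, were the lowest. The means were 8339.7 ± 3517 in KNP animals and 8066 ± 2429 in YS animals (SD, n = 4), a log2 change of 0.02 (SE 0.29, 95% interval -0.61 to 0.64, limma adjusted p = 0.999). The change was -0.24 without KNP 2. The second UGP2 probe set, Ssc.30801.1.A1_at, had signals of 815, 1835, 1817 and 1379 in KNP 1 to 4, against 1082, 1592, 890.5 and 1282 in YS 1 to 4. Here too KNP 1 and YS 3 were the lowest arrays, and the log2 change was 0.23 (SE 0.28, 95% interval -0.38 to 0.83, limma adjusted p = 0.999). It was 0.48 without KNP 1 and 0.37 without YS 2, and 0.10 without KNP 2, 0.10 without KNP 3 and 0.095 without YS 3. Over the 8 arrays the log2 signals of the UGP2 probe sets had a correlation of 0.72.

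GYS1, which encodes the muscle form of glycogen synthase, had the widest spread of the synthesis genes, and its 3 probe sets did not vary together. Ssc.2329.1.A1_at had signals of 2210.1, 2821, 754 and 880.3 in KNP 1 to 4, against 1679, 1523, 1168 and 4271.5 in YS 1 to 4. The lowest pair of arrays was from KNP animals and the highest array was YS 4, while the breeds overlapped. The means were 1666 ± 1013 in KNP animals and 2160.5 ± 1423 in YS animals (SD, n = 4), with a log2 change of -0.40 (SE 0.46, 95% interval -1.41 to 0.61, limma adjusted p = 0.999). Without YS 4 the change was -0.01, and without KNP 2 it was -0.72. 

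The other GYS1 probe sets were dim, with some arrays below the 91.5 of the negative controls. Ssc.2291.1.S1_at had signals of 97.0, 292, 124 and 204 in KNP 1 to 4, against 76.9, 196, 109 and 50.3 in YS 1 to 4. Only YS arrays, 2 of 4, were below 91.5, and the log2 change was 0.60 (SE 0.41, 95% interval -0.29 to 1.49, limma adjusted p = 0.999). It lay between 0.37, without KNP 2, and 0.87, without YS 2, when 1 array was left out, and was 0.38 without YS 4. It was 0.20 within the arrays of bright hybridisation controls and 1.01 within those of dim ones. Ssc.2291.2.S1_at had signals of 8.20, 390.1, 178 and 73.5 in KNP 1 to 4, against 135, 400.4, 12.9 and 273 in YS 1 to 4. KNP 1 and YS 3 were again the lowest arrays, and the log2 change was -0.35 (SE 0.77, 95% interval -2.04 to 1.34, limma adjusted p = 0.999). The correlations between pairs of GYS1 probe sets over the 8 arrays were 0.30, 0.30 and -0.29, and their breed differences had opposite signs.

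PGM1, whose enzyme works in both directions of the pathway, varied least. Ssc.1006.1.S1_at had signals of 58221, 44956, 45400.3 and 39240 in KNP 1 to 4, against 51519.9, 46087, 46903 and 65221 in YS 1 to 4. YS 4 was the highest array and KNP 4 the lowest, a 1.66-fold span over all 8 arrays. The means were 46954 ± 8018 in KNP animals and 52433 ± 8855 in YS animals (SD, n = 4), a log2 change of -0.16 (SE 0.19, 95% interval -0.57 to 0.25, limma adjusted p = 0.999). The change was -0.05 without YS 4 and -0.27 without KNP 1.

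PYGM, the enzyme that carries out breakdown, was measured by 4 probe sets that fell into pairs. In the first pair, Ssc.19476.2.A1_s_at had signals of 69194, 49671, 59964 and 47112 in KNP 1 to 4, against 58719, 56117, 68386 and 105775 in YS 1 to 4. Ssc.18344.1.S1_at had signals of 60894, 52981, 57723 and 47767 in KNP 1 to 4, against 54523.5, 55275, 53986 and 108420 in YS 1 to 4. Both were highest in YS 4, and the other 7 arrays lay close together. Their correlation over the 8 arrays was 0.93. The log2 change was -0.32 for Ssc.19476.2.A1_s_at (SE 0.23, 95% interval -0.82 to 0.17, limma adjusted p = 0.999) and -0.25 for Ssc.18344.1.S1_at (SE 0.24, 95% interval -0.76 to 0.27, limma adjusted p = 0.999). Without YS 4 these changes were -0.12 and 0.000546. In YS 4 the summed signal of fast fibre genes, of which 7 of 12 had a probe set, was also the highest, at 736533, against 340893 to 498887 in KNP animals and 461718 to 477284 in YS 1 to 3. The sum of the general muscle markers CKM, DES and TTN was likewise highest in YS 4, at 230960, against 126779 to 197149 in KNP animals and 151080.5 to 203815 in YS 1 to 3. The part of muscle and fibre markers in the YS 4 values was not tested.

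The second pair of PYGM probe sets showed another pattern, with very low signals on the arrays of high 3' to 5' difference. Ssc.18344.2.A1_at had signals of 1687, 19943, 14087 and 19417 in KNP 1 to 4, against 9594, 25852, 2169.6 and 22379 in YS 1 to 4. Ssc.19476.1.S1_at had signals of 159.8, 8088, 4357 and 6696 in KNP 1 to 4, against 1919, 15755, 332 and 5067 in YS 1 to 4. In both, KNP 1 and YS 3 were the lowest arrays and YS 1, next by 3' to 5' difference, came after them. The correlation within this pair was 0.98 over the 8 arrays, while across the pairs it was between -0.30 and 0.15. The mean log2 signal of KNP 1 and YS 3 was lower than that of the other 6 arrays by an amount exceeded by few probe sets. The difference was -3.18 for Ssc.18344.2.A1_at, with 2 of 14399 tested probe sets lower, and -4.45 for Ssc.19476.1.S1_at, with 1 lower. In the first pair it was -0.07 and 0.19, near the median of 0.08 over all probe sets. 

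Within the 6 arrays of low 3' to 5' difference, the second PYGM pair still had its lower signals where that difference was greater. The lowest of the 6 in both probe sets were YS 1 and KNP 3, with differences of 1.73 and 1.40. They were also the only arrays of the 6 with bright hybridisation controls. A relation to the 3' to 5' difference apart from this brightness was therefore not tested. Pearson's r was -0.93 for Ssc.18344.2.A1_at (exact permutation p = 0.0111, two-sided; Spearman's rho -0.83, exact permutation p = 0.0583). It was -0.90 for Ssc.19476.1.S1_at (exact permutation p = 0.0167, two-sided; rho -0.89, exact permutation p = 0.0333). Adjusted over the 12 member probe sets these r had a permutation p of 0.1, so neither passed. Without the 2 arrays farthest from the median of the 3' to 5' difference r was -0.99 and -0.83 over the remaining 4, too few for a test. Most of the other member probe sets had values of the same sign. PHKG1 (r = 0.54), PGM1 (r = 0.11) and PYGM on Ssc.19476.2.A1_s_at (r = 0.03) were above 0. UGP2 on Ssc.30801.1.A1_at had r = -0.61, but 0.43 without the same 2 arrays. UGP2 on Ssc.5264.1.A1_at had r = -0.82 (exact permutation p = 0.0417, or 0.167 adjusted over the 12) and rho = -0.89 (exact permutation p = 0.0333, or 0.2 adjusted), and -0.72 without the same 2 arrays. GYS1 on Ssc.2291.2.S1_at had r = -0.66 (exact permutation p = 0.151). The log2 change between breeds was -0.10 for Ssc.18344.2.A1_at (SE 0.85, 95% interval -1.95 to 1.76) and -0.08 for Ssc.19476.1.S1_at (SE 1.23, 95% interval -2.76 to 2.60), both with limma adjusted p = 0.999. These intervals are several times wider than those of the first pair. Without KNP 1 the changes were 0.74 and 1.18, and without YS 3 they were -0.85 and -1.05.

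**Figure D2:**
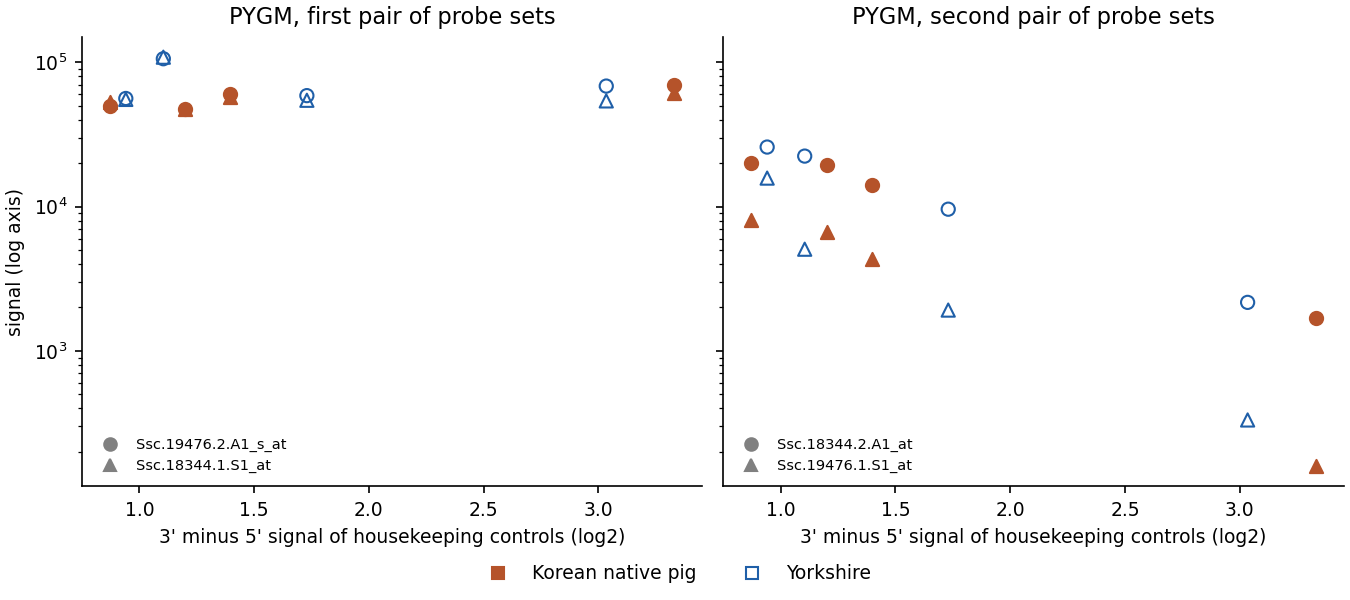
Signal (log axis) of the 4 PYGM probe sets on each array against the mean log2 difference between 3' and 5' signal of actin, EF1A and GAPDH on that array, with filled symbols for the 4 KNP animals and open symbols for the 4 YS animals. The first pair stays between 47112 and 108420, while the second pair is lowest on the 2 arrays at 3.03 and 3.33.

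The phosphorylase kinase genes gave 1 well measured subunit. PHKB on Ssc.4717.1.S1_at had signals of 11574.5, 15293, 11875 and 12502 in KNP 1 to 4, against 11889, 12207, 7151 and 11848 in YS 1 to 4. YS 3 was far below the other 7 arrays, and KNP 2 was the highest. KNP 1, which like YS 3 had a high 3' to 5' difference, was the next lowest, just below YS 4. The mean log2 signal of KNP 1 and YS 3 differed from that of the other 6 arrays by -0.46, with 1867 of 14399 tested probe sets lower. The means were 12811 ± 1699 in KNP animals and 10774 ± 2421 in YS animals (SD, n = 4), a log2 change of 0.27 (SE 0.21, 95% interval -0.18 to 0.72, limma adjusted p = 0.999). Without YS 3 the change was 0.09. The summed signal of slow fibre genes, of which 8 of 9 had a probe set, was highest in YS 3, at 496720, against 212176 to 420238 in KNP animals and 289812 to 358861 in the other YS animals. The part of the slow fibre sum or of the 3' to 5' difference in the PHKB value of YS 3 was not tested. PHKG1 on Ssc.16349.1.S1_at had signals of 17.3, 32.2, 126 and 109.5 in KNP 1 to 4, against 125, 97.3, 20.5 and 7.09 in YS 1 to 4. Of its arrays 2 in each breed were below the 91.5 of the negative controls, so no breed difference is given for the catalytic subunit.

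**Figure D3:**
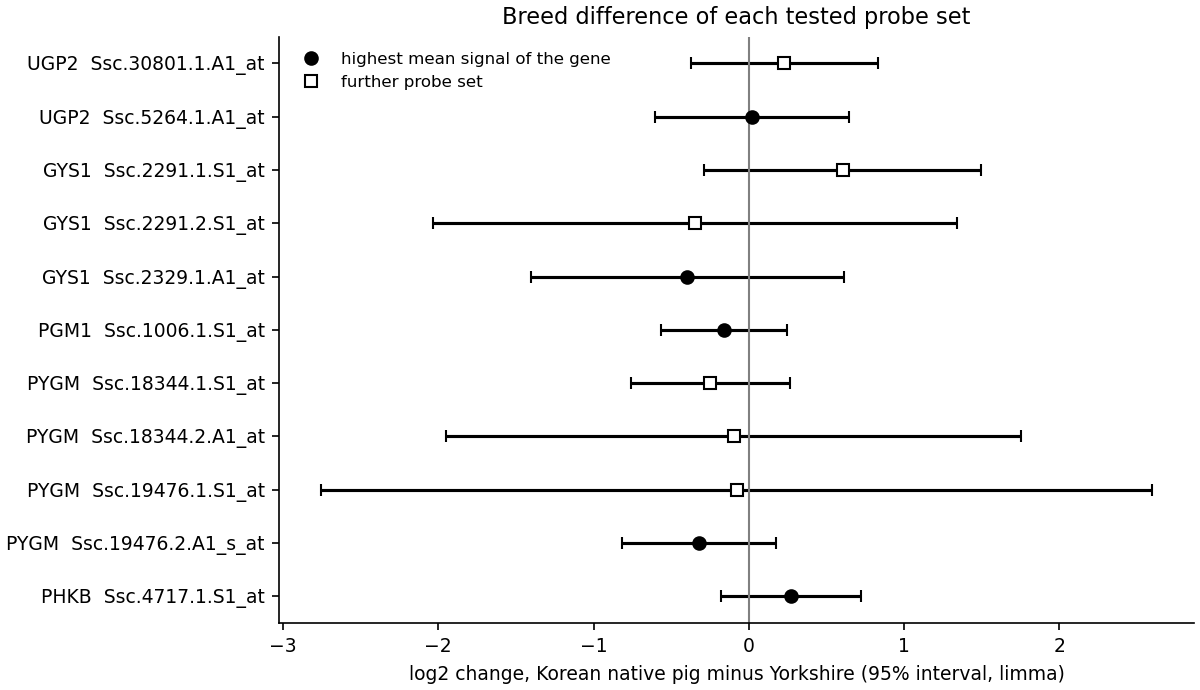
Log2 change, KNP minus YS, of the 11 tested probe sets, with 95% intervals from limma. Filled circles mark the probe set of highest mean signal of each gene and open squares its further probe sets. Every interval includes 0, and those of the second PYGM pair, -1.95 to 1.76 and -2.76 to 2.60, are the widest.

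Synthesis was then set against breakdown within each animal. Each gene's log2 signal was centred on its mean over the 8 arrays, and the mean of PYGM, PHKB and PHKG1 was taken from the mean of UGP2 and GYS1. This difference was 0.23, 0.89, -0.89 and -0.70 in KNP 1 to 4, against -0.39, -0.06, -0.07 and 1.00 in YS 1 to 4. It was highest in YS 4 and KNP 2 and lowest in KNP 3 and 4, so animals of 1 breed lay near both ends. The mean was -0.12 ± 0.83 in KNP animals and 0.12 ± 0.60 in YS animals (SD, n = 4), a difference of -0.24, which is smaller than the SD in either breed. As a score over these genes it carries no test.

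PHKG1, which was near the negative controls, added to the contrast. Without it, an alternative chosen after seeing the data, the values were -0.06, 0.74, -0.59 and -0.41 in KNP 1 to 4, against -0.09, 0.15, -0.22 and 0.48 in YS 1 to 4, with a difference between breeds of -0.16. With each gene taken by its probe set of highest mean, the synthesis mean varied more than the breakdown mean. The mean of UGP2 and GYS1 lay between -0.61 and 0.78 in KNP animals and between -0.50 and 0.88 in YS animals. That of PYGM and PHKB lay between -0.15 and 0.07 in KNP animals and between -0.28 and 0.40 in YS animals. With PHKG1 these breakdown ranges were -0.22 to 0.29 and -0.42 to 0.27. Averaging narrows the breakdown side where its genes move apart. The centred PHKB minus PYGM lay between -0.82 in YS 3 and 0.73 in KNP 2. On the synthesis side GYS1 had the wider spread, with a log2 SD of 0.93 in KNP and 0.80 in YS animals, against 0.53 and 0.45 for UGP2. Leaving out an array moved the contrast of the breeds between -0.57, without KNP 2, and 0.06, without YS 4. It was also above 0, at 0.02, without KNP 3. With the mean over all probe sets of a gene the contrast was -0.05, so its size depended on the choice of probe set. It was -0.23 with PGM1 on the synthesis side and -0.18 with PGM1 on the breakdown side.

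**Figure D4:**
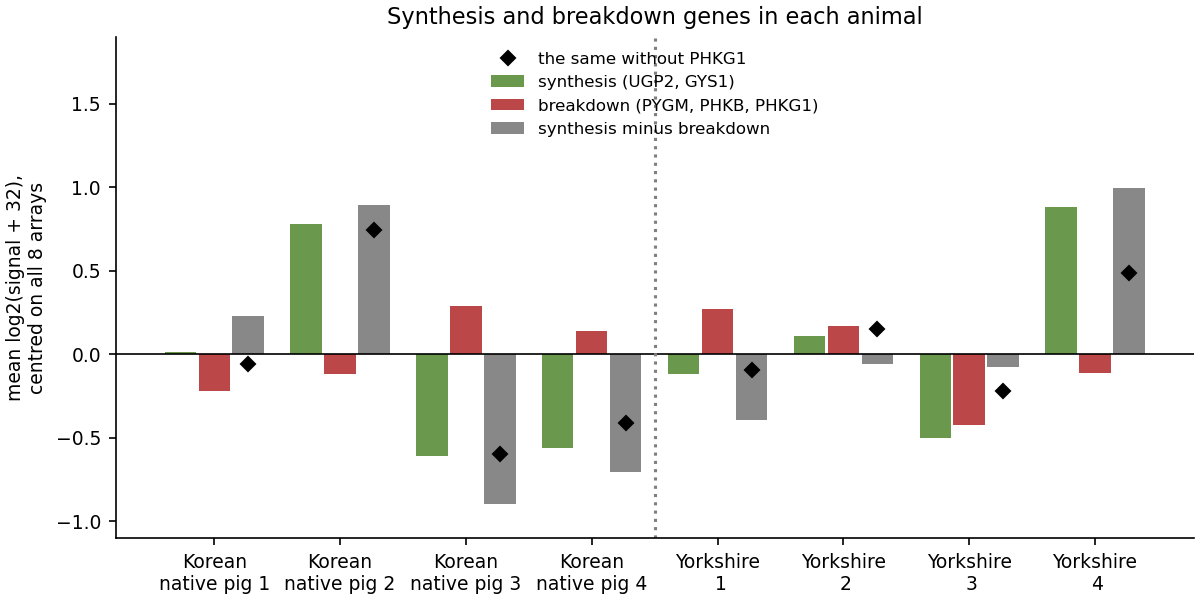
Mean log2(signal + 32) of synthesis genes (green) and breakdown genes (red), centred on all 8 arrays, and their difference (grey) in each animal, KNP animals on the left and YS animals on the right. Black diamonds give the difference without PHKG1. KNP 2 (0.89) and YS 4 (1.00) are at the upper end and KNP 3 (-0.89) at the lower.

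The genes were also compared with each other across animals. Among the 10 pairs of the 5 tested genes, PGM1 and PYGM were the most alike, with Pearson's r of 0.89 over the 8 arrays (exact permutation p = 0.00226, two-sided, 0.0226 adjusted over 10 pairs) and Spearman's rho of 0.88 (exact permutation p = 0.00724, or 0.0362 adjusted). Without YS 4 and KNP 1, the arrays farthest from the median of PGM1, r was 0.66 over 6 arrays (exact permutation p = 0.135), so the relation no longer passed over these 6. Without YS 4 alone r was 0.77 (exact permutation p = 0.349 adjusted over 10 pairs), and without KNP 1 alone it was 0.92 (exact permutation p = 0.0972 adjusted). With quantile normalisation, also chosen after seeing the data, r was 0.52 (exact permutation p = 0.400 adjusted over 10 pairs). With arrays centred on their median, chosen in the same way, it was 0.83 (exact permutation p = 0.0193 adjusted).

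By rank only, the phosphorylase gene and the kinase subunit gene PHKB ran in opposite order. Some PHKB signals were nearly tied, such as 11848 in YS 4, 11875 in KNP 3 and 11889 in YS 1. Their rho was -0.88 (exact permutation p = 0.00724, or 0.0362 adjusted over 10 pairs), while Pearson's r was -0.33 (exact permutation p = 0.332, or 0.554 adjusted). Without YS 4 and KNP 4, the arrays farthest from the median of PYGM, r was -0.77 (exact permutation p = 0.0847). Over the other alternatives r lay between -0.69, without YS 4, and -0.09, with arrays centred on their median. Their adjusted exact permutation p lay between 0.333 and 0.758, and none was run for rho. The next closest pairs by r were GYS1 and PGM1, at 0.75 (exact permutation p = 0.0328, or 0.164 adjusted over 10 pairs), and UGP2 and PHKB, at 0.68 (exact permutation p = 0.0635, or 0.212 adjusted). The synthesis pair UGP2 and GYS1 had r = 0.58 (exact permutation p = 0.133, or 0.266 adjusted) and GYS1 and PYGM r = 0.57 (exact permutation p = 0.133, or 0.266 adjusted). The arrays were split at the median brightness of the hybridisation controls into 2 classes of 4, each too small for a correlation test of its own. The bright class was KNP 1, KNP 3, YS 1 and YS 3. These were also the 4 arrays of greatest 3' to 5' difference. All pairs share the arrays and their scaling.

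**Figure D5:**
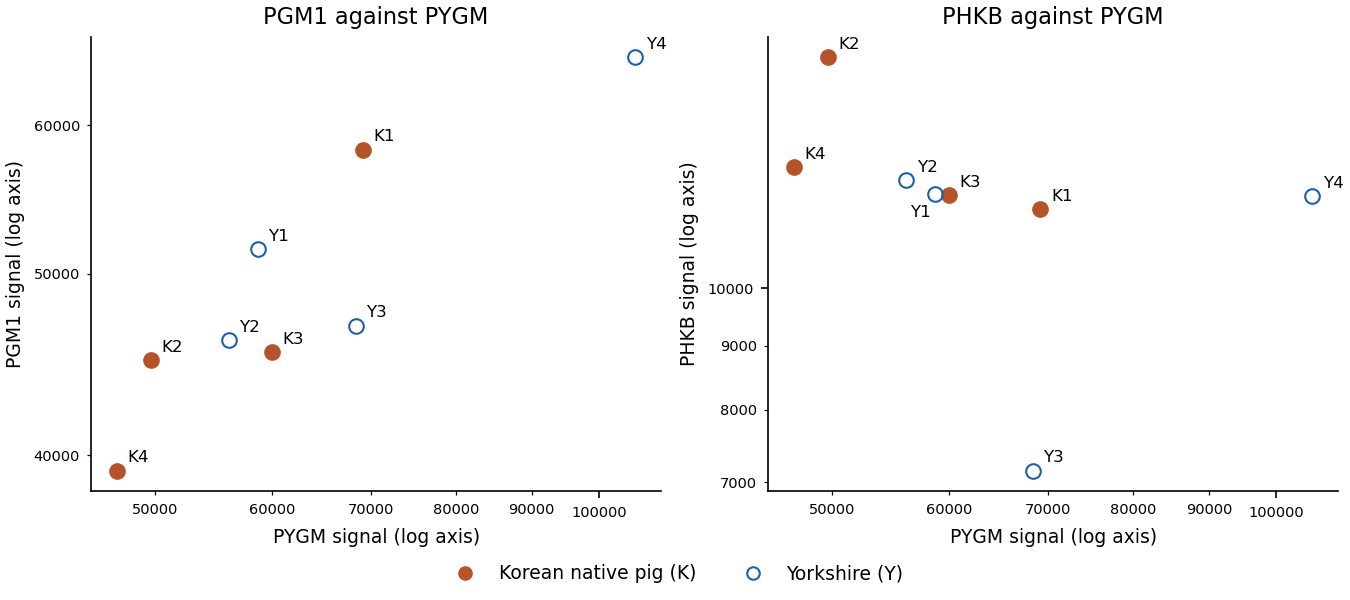
Signals (log axes) of PGM1 (left) and PHKB (right) against PYGM, each by the probe set of highest mean signal, on the 4 KNP (K) and 4 YS (Y) arrays. PGM1 follows PYGM with r = 0.89, and Y4 and K1 are the highest in both. In PHKB, Y3 at 7151 lies apart from the other arrays.

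Some genes outside the set had an even closer pattern over the 8 arrays, among 5326 other genes. The nearest to PYGM were LOC100526209 (r = 0.98), AKT2, a kinase of insulin signalling (r = 0.97), and ENO3, the muscle enolase of glycolysis (r = 0.97). The nearest to GYS1 were NHP2, a protein of small nucleolar ribonucleoproteins (r = 0.98), the homeobox gene PKNOX2 (r = 0.97) and the autophagy protease gene ATG4D (r = 0.96). An r above 0.9 was reached by 22 genes for PYGM and by 28 for GYS1. These values are a description over 8 arrays that share their scaling.

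The other genes of glycogen metabolism showed no breed difference that passed either. Of 40 listed genes 24 had a probe set, all 24 were tested, and limma called 0 higher and 0 lower, and the lowest adjusted p was 0.999. Counting unadjusted p under 0.05 gave 1 gene, PPP1CA, against 3.43% of all genes tested. Above 0 were 9 and below 0 were 15, with a median of -0.18. Over all 5331 genes tested, 2643 lay above 0 and 2688 below, with a median of -0.00269. Whether the lean below 0 of the listed genes differs from this was not tested. The genes of smallest p were PPP1CA, CALM2, CALM3, PRKACA, SLC2A4 and PRKAG3. PPP1CA, a catalytic subunit of protein phosphatase 1, which reverses the phosphorylation of these enzymes, had a signal of 77.3 ± 31.5 in KNP animals and 149 ± 26.2 in YS animals (SD, n = 4). Its log2 change was -0.76 (SE 0.33, limma adjusted p = 0.999), and 3 arrays, all of KNP animals, were below 91.5. A dimmer PPP1CA probe set, at -0.59, was not tested.

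CALM2, 1 of the genes for calmodulin, the calcium-binding subunit of phosphorylase kinase, had a signal of 7003 ± 2091 in KNP animals and 9174 ± 1100.5 in YS animals (SD, n = 4), with a log2 change of -0.43 (SE 0.22, limma adjusted p = 0.999). CALM3, another of these genes, was at -0.43 (SE 0.28), while 5 further CALM3 probe sets lay between -0.22 and 0.95. The highest of these had an unadjusted limma p of 0.0386 in the opposite direction. PRKACA, a catalytic subunit of the cyclic AMP dependent kinase that activates phosphorylase kinase, was at -0.34 (SE 0.20). SLC2A4, the insulin-responsive glucose transporter of muscle, was at -0.68 (SE 0.39), with further probe sets at -0.49 and -0.01. 

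PRKAG3 encodes a muscle subunit of AMP-activated kinase, and variants of it are known to change muscle glycogen in pigs. Its signals were 188, 342, 149 and 145 in KNP 1 to 4, against 362, 343, 184 and 382 in YS 1 to 4. The breeds overlapped, since YS 3 was below both KNP 1 and KNP 2, and the log2 change was -0.58 (SE 0.31, 95% interval -1.27 to 0.11, limma adjusted p = 0.999). By role, 0 of 5 phosphatase genes, 0 of 9 upstream kinase and calmodulin genes, 0 of 5 genes of hexose phosphates and glucose entry and 0 of 3 further phosphorylase and kinase genes passed by limma. GYG1, the primer protein of glycogen, was at -0.26 (SE 0.20) and STBD1, which links glycogen to membranes, at 0.33 (SE 0.26). PYGL, the liver form of phosphorylase, had signals of 284 to 478 in KNP animals, against 347 to 548 in YS animals, all above 91.5.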

How the data were processed

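Total RNA of 8 longissimus dorsi samples, 4 per breed, was extracted with Trizol, labelled with biotin and hybridised to one-colour arrays, per the labels' protocols. Each array gave a linear intensity value per probe set in the deposited table, and the software, per the submitters' processing notes, was GCOS 1.3. The method of probe summary and the genome build were not given in the sources used here. The authors' deposited intensity values had a trimmed mean (2% left out at each end) of 500.1 to 500.2 on all arrays, so the files hold scaled values and changes are relative within an array. There were 0 other value columns, and no arrays were identical.

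A pseudocount of 32 was added before log2, and changes of dim probe sets are therefore understated. After removal of 124 control probe sets and the dimmest 40% of the others, 14399 were fitted over the 8 arrays with limma 3.58.1 in R 4.3.3 (lmFit, trended eBayes, breed as the single factor), and p-values were adjusted over all 14399 (Benjamini-Hochberg). The number of arrays limits the precision, and the standard error was 0.28 in the median and between 0.19 and 1.23 for the member probe sets. The limma p-values set the breed difference against the spread between these animals, moderated over all probe sets. Those of the correlations come from reordering the arrays without regard to breed.

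The probe set with the highest mean stood for its gene. The members, the gene lists and the tests were chosen with earlier results of these data known. Text names every member probe set, the 6 other pathway genes of smallest p, since none passed, and the 3 genes most correlated with PYGM and with GYS1. GYG1, STBD1 and PYGL were named after their values were seen. Marker signals were summed over the probe sets that stood for the genes of each list. Alternatives covered the pseudocount, normalisation, filter, trend, blocks, left-out arrays and the make-up of the contrast. No reference sequence of these genes was used here.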

Additional observations from a re-analysis of the deposited data

Results flagged for a closer look

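In groups of 4 arrays, 4 values stood apart from the others of their breed by Dixon's test, of 26 groups examined. Chance would give about 1.3, but the groups are not independent, so the counts cannot be set against each other strictly. Both KNP 1 values below come from PYGM probe sets with a correlation of 0.98 over the arrays, and the contrast is built from probe sets also examined. The log2(signal + 32) of PYGM on Ssc.18344.1.S1_at was 16.73 in YS 4, against 15.76 in the next YS array. For PYGM on Ssc.18344.2.A1_at it was 10.75 in KNP 1, against 13.79 in the next KNP array. For PYGM on Ssc.19476.1.S1_at it was 7.58 in KNP 1, against 12.10 in the next. For PHKB on Ssc.4717.1.S1_at it was 12.81 in YS 3, against 13.54 in the next YS array. KNP 1 and YS 3 are the arrays of highest 3' to 5' difference, at 3.33 and 3.03, and the part of that difference in these values was not tested.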

How the results depend on the processing

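The count of member probe sets past the threshold stayed at 0 in all 19 other fits by limma, with a smallest member adjusted p of 0.964. Over the whole array the count was 0 except with the replicate block, where it was 1, no member. The replicate numbers were not stated to pair animals. Same-numbered arrays had correlations of -0.04, 0.31, 0.10 and 0.05 after removal of breed means. KNP 2, 3 and 4 each correlated best with the YS array of their own number, and KNP 1 with YS 3. In both breeds, replicates 1 and 3 had bright hybridisation controls and replicates 2 and 4 dim ones. Replicate number and this brightness were therefore linked, and whether the numbers pair animals was not settled. Without 1 array the count of members stayed at 0, the median of the 5 genes lay between -0.27 and -0.01 (it was 0.065 within the arrays of bright hybridisation controls, -0.38 within those of dim ones, -0.32 without both high 3' to 5' arrays, -0.024 with quantile normalisation and -0.047 with the mean over all probe sets of a gene), and the contrast of synthesis with breakdown between -0.57 and 0.06. No alternative moved the median or the contrast by more than its SD between animals of 0.34 and 0.73. For the contrast, leaving out 1 of 4 arrays of a breed cannot pass this limit. The brightness block and the centring of arrays leave the contrast unchanged by construction. Staying within the limit is therefore no measure of how firm the contrast is, and its sign turned without YS 4 and without KNP 3. Leaving PPP1R3C out of the contrast was not run, since it has no probe set here.

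Several changes turned sign, none past the threshold and the cause not tested. Within the arrays of bright hybridisation controls PGM1 was at 0.065, PYGM at 0.13 (Ssc.18344.1.S1_at), 0.10 (Ssc.18344.2.A1_at), 0.12 (Ssc.19476.1.S1_at) and 0.024 (Ssc.19476.2.A1_s_at), and GYS1 Ssc.2291.2.S1_at at 0.087. PYGM Ssc.18344.1.S1_at was at 0.043 with quantile normalisation, and between -0.33 and 0.000546 without 1 array, highest without YS 4. PYGM Ssc.18344.2.A1_at was between -0.85 and 0.74 without 1 array, positive without KNP 1 (0.74), YS 2 (0.34) and YS 4 (0.27). PYGM Ssc.19476.1.S1_at was between -1.05 and 1.18 in the same way, positive without those arrays (1.18, 0.76 and 0.22), and at 0.20 without both high 3' to 5' arrays. GYS1 Ssc.2291.2.S1_at was between -1.01 and 0.25, positive without KNP 1 (0.25) and YS 2 (0.081). UGP2 Ssc.5264.1.A1_at was at -0.10 within the arrays of dim hybridisation controls, -0.015 without both high 3' to 5' arrays, and between -0.24 and 0.16 without 1 array, negative without KNP 2 (-0.24), YS 1 (-0.066) and YS 3 (-0.15). The r of PGM1 with PYGM lay between 0.77 and 0.92 without 1 array, and the adjusted permutation p between 0.00397 and 0.349. The alternatives for this r, for that of PYGM with PHKB, and for PHKG1 and the PYGM pair in the contrast were chosen after seeing the data. Signals near 91.5 limit what can be said of PHKG1 and of the dim GYS1 probe sets.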
